A study of Mus musculus with 34 samples.

Results

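The genes of mitosis and of the passage from G2 into mitosis were examined in limb buds with and without *Hnrnpk*. They are a list of 48 genes chosen by symbol for their roles: Cdk1 and its cyclins, the spindle checkpoint, mitotic kinases, kinetochore and spindle proteins, cytokinesis proteins and chromosome structure proteins. All 48 were found among the 22040 genes of the mRNA-seq table, and all 48 passed the filter on low values that left 12305 genes for testing. The table holds 3 WT and 3 CKO libraries from E11.5 mouse limb bud cells, which the study describes as biological replicates. CKO embryos were *Prrx1-Cre;Hnrnpk fl/fl*, in which Cre removes the floxed exons of *Hnrnpk*, the gene of an RNA- and DNA-binding protein. WT embryos carried the genotype given as *Hnrnpk* WT, and neither the labels nor the methods say whether they carried Cre or floxed alleles. Both sexes were used. The *Prrx1* promoter drives Cre in limb bud mesenchyme, so ectoderm, blood, vessel and muscle precursor cells of the same bud are expected to keep the gene and are part of the same RNA. In such bulk RNA, fewer cells of a type and less RNA per cell cannot be told apart.

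Mitosis begins when Cdk1 bound to cyclin B is released from inhibition by Cdc25 phosphatases, and ends when the anaphase-promoting complex (APC/C) with Cdc20 marks cyclin B and securin for destruction. Between these steps, chromosomes condense, kinetochores attach to the spindle, the checkpoint holds anaphase until attachment is complete, and the midzone and contractile ring divide the cell. Most of these genes are transcribed mainly in G2 and M, so in a tissue their RNA is commonly read as a measure of dividing cells. Early limb bud mesenchyme is a rapidly dividing tissue. The genes are known to be repressed by the DREAM complex in resting cells, also after p53 induces *Cdkn1a* (p21), and to be activated by B-Myb and Foxm1 in G2.

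A common feature of such promoters is the cell cycle genes homology region (CHR), a short element close to the start site, together with CCAAT boxes bound by NF-Y. Promoter windows of 250 bases before to 50 bases after the start were taken from RefSeq on GRCm38.p6 and matched by symbol, which gave 43 starts of 39 of the 48 genes. *Aurkb*, *Ccna2*, *Cdc25c*, *Dlgap5*, *Incenp*, *Kif20a*, *Pbk*, *Smc4* and *Tpx2* had no entry. The CHR letters TTTGAA, read on both strands, were found in 30 of 43 starts (69.8%), against 15.2% of the 20007 starts of all genes of the table. Within 50 bases of the start the shares were 62.8% and 3.75%. CCAAT, read on both strands, stood in 74.4% of the starts, against 37.8% of all starts. The CHR share was 44.3% of 79 starts in a list of other mitotic genes and 9.3% of 43 starts in a list of G1/S and replication genes. The palindrome TTCGAA was in 9.3% of the starts against 1.88% of all, and a p53 half-site in 14% against 7.29%. These are matches of letters within a window and not tested binding sites.

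Windows of 100 bases before to 30 bases after the start follow for 5 genes with the CHR letters and for 2 without them. They read 5′ to 3′ on the strand of the gene. Capitals mark the CHR letters (TTTGAA, or TTCAAA on the other strand) and the CCAAT boxes (CCAAT or ATTGG). They are shown because *Cdk1*, *Cdc20*, *Ccnb2*, *Cenpa* and *Top2a* carry these CHR letters, while *Ccnb1* and *Gtse1* have none in the full window. Other forms of the element than TTTGAA and the palindrome were not searched, so a window without these letters may still hold one.
Cdk1, chr10:69352883-69353012, minus strand: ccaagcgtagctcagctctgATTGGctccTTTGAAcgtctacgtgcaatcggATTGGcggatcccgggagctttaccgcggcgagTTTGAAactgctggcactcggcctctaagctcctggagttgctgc
Cdc20, chr4:118437314-118437443, minus strand: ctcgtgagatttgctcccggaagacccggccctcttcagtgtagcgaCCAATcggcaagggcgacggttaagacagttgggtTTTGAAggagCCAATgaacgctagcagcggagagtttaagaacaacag
Ccnb2, chr9:70421525-70421654, minus strand: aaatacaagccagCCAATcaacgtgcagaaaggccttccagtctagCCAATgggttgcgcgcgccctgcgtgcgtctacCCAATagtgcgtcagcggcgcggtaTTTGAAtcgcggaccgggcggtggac
Cenpa, chr5:30666786-30666915, plus strand: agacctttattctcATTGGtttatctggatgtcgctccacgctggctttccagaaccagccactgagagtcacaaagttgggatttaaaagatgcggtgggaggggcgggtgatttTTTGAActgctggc
Top2a, chr11:99024160-99024289, minus strand: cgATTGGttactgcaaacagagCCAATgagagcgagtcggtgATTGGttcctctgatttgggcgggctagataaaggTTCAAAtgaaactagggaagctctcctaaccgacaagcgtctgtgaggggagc
Ccnb1, chr13:100786457-100786586, minus strand: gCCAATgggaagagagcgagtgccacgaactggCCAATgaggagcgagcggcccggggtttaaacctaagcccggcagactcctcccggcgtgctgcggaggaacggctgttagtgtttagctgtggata
Gtse1, start 1, chr15:85859607-85859736, plus strand: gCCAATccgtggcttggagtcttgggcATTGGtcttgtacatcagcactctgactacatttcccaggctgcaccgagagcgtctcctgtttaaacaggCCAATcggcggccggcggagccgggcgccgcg
Gtse1, start 2, chr15:85859846-85859975, plus strand: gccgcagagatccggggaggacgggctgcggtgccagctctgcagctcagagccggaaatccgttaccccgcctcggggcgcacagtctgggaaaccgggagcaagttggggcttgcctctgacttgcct
The second start of *Gtse1* held the one p53 half-site of this gene, which began 10 bases after the start.

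Each library stood on 17140867 to 24624434 reads over the listed genes, as recovered from the values, and the 48 genes each had between 840 and 29817 reads per library. In CKO replicates 2 and 3 the recovered total (21190287 and 24624434) exceeded the divisor by which the library was scaled (19146570 and 23848048). The totals are therefore approximate. *Hnrnpk* itself was 191 ± 4.996 FPKM in WT and 135 ± 7.48 FPKM in CKO (mean ± SD, n = 3 each), and its CKO values, from 127 to 142, lay below all WT values, from 185 to 195. Its log2 fold change was -0.50 with an adjusted *p* value of 0.33 in limma, and 0.057 with the replicate number as a block. The libraries differed in blood content, and globin genes took 13.7%, 19.5% and 20.6% of the summed FPKM in the WT libraries, in the order of replicates 1, 2 and 3 used throughout. In the CKO libraries they took 11.7%, 32.4% and 23.5%. The *p* values measure the spread between these libraries, and with 3 against 3 an exact permutation test of 1 value cannot give less than 0.1.

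The mitotic genes were expressed at high levels and differed little between WT and CKO limb buds. FPKM are fragments on a gene after scaling by a divisor for the library and by gene length. The mean FPKM of the mitotic genes ran from 11.6 for *Anln*, a scaffold of the contractile ring, to 115 for *Top2a*, the topoisomerase that untangles sister chromatids. The median over the 48 genes was 28.3 FPKM, against 7.07 for all genes tested, and the lowest of the 48 lay above 65% of the genes tested. On the log2(FPKM + 0.1) scale, none of the 48 passed an adjusted *p* value of 0.05 in limma, where 8 of 12305 genes (0.065%) did. Before adjustment, 1 gene, *Gtse1*, had a *p* value under 0.05 (2.08% of the 48, against 8.31% of all genes tested). On recovered reads, voom also called 0 of the 48, with 1 gene under 0.05 before adjustment, and called 0.0813% of all genes. A model with the replicate number as a block called *Gtse1* alone of the 48, against 346 of all genes (2.81%).

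The size of the differences was bounded by the replicate error. The log2 fold changes, CKO minus WT, had a median of 0.10 and an interquartile range of 0.02 to 0.17, while those of all genes tested had a median of 0.0048 and an interquartile range of -0.15 to 0.14. In 46 of the 48 genes (95.8%) the change was under 0.25 in size, against 73.6% of all genes. Standard errors ran from 0.10 to 0.28 with a median of 0.14 (0.17 for all genes). In the deposited scaling, the 95% interval of the difference excluded a fall of 1 on the log2 scale in all 48 genes. It excluded a fall of 0.5 in 44 of them (in all 48 with the replicate block). It excluded a rise of 1 in all 48 and a rise of 0.5 in 30. The lowest bound of any interval was -0.60, for *Spc25*, a kinetochore protein. These bounds shift with the scaling, and they were not counted in the others. With every library scaled to the same sum without globin genes, *Pbk* moved from -0.20 to -0.31 and *Ccnb2* from -0.19 to -0.29. The plot of fold changes by role shows these intervals.

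**Figure D1:**
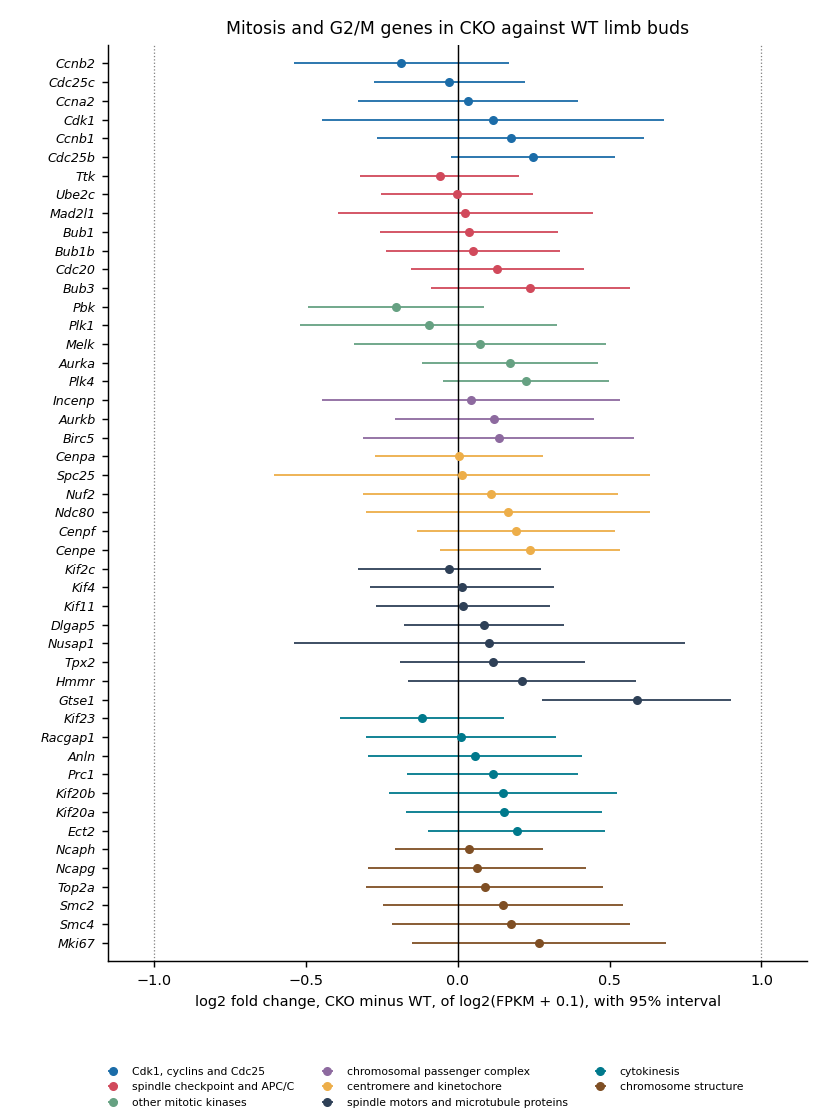
Log2 fold change (CKO minus WT, of log2(FPKM + 0.1)) of each of the 48 genes on the horizontal axis, with its 95% interval from limma as a bar and its role as colour; dotted lines mark -1 and 1. The intervals of 47 genes include 0, and that of *Gtse1* runs from 0.28 to 0.90.

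Whether more genes of the list had a CKO mean above or below the WT mean depended on the scaling. As deposited, 40 of 48 (83.3%) were above 0, against 50.9% of all genes tested, and with median-ratio scaling there were 41, with quantile normalization 28, and with every library scaled to the same sum without globin genes 23, against 25 below 0. The last scaling moved the median of all genes to -0.10 and the median of the 48 to -0.010. Against the median of all genes, 39 of the 48 stood higher in the first, second and last of these scalings and 28 after quantile normalization. The count also rested on CKO replicate 2, because without it 26 genes stood above 0 and 22 below, with a median of 0.027. The values of the 3 CKO and 3 WT libraries did not overlap in 5 genes (10.4%), against 14.5% of all genes tested. *Gtse1*, *Cdc25b*, *Cenpe* and *Plk4* lay higher in CKO (5.63% of all genes did) and *Pbk* lay lower (8.86% of all genes did).

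In the deposited scaling, the CKO libraries lay further from each other in the 48 genes than the WT libraries did. Summed over the 48 genes, the FPKM were 1832, 1767 and 1799 for WT and 1731, 2143 and 1937 for CKO, so that the lowest and the highest library were both CKO. Relative to each gene's mean over the 6 libraries, the median log2 deviation of the 48 genes was 0.0019, -0.08 and -0.04 in WT and -0.10, 0.21 and 0.05 in CKO. This order depended on the scaling. As a share of the summed FPKM without globin genes, the 48 genes took 0.7746%, 0.6772% and 0.7324% in WT. In CKO they took 0.7498%, 0.7223% and 0.7005%. By that measure the highest library, replicate 1, and the lowest, replicate 2, were both WT. As deposited, CKO replicate 2 was the highest library for 33 of the 48 genes. CKO replicate 1 was the lowest for 18 and WT replicate 2 for 15. The coefficient of variation over the 6 libraries ranged from 3.08% for *Ube2c*, the ubiquitin-conjugating enzyme of the APC/C, to 27.8% for *Nusap1*, a spindle microtubule protein, with a median of 12.1%.

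**Figure D2:**
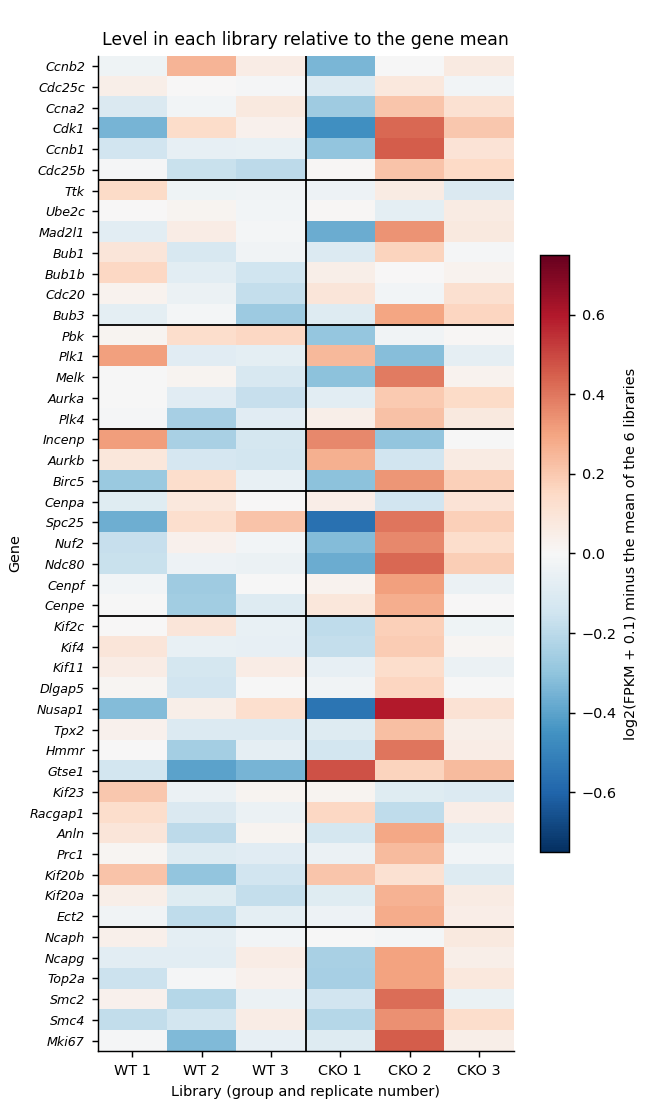
Level of each of the 48 genes (rows, grouped by role) in each library (columns), as log2(FPKM + 0.1) minus the mean of the 6 libraries. As deposited, CKO replicate 2 is the highest library in 33 rows and CKO replicate 1 the lowest in 18, while *Gtse1* is higher in all 3 CKO libraries.

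Compared within replicate numbers, which the libraries of both groups share, the direction was not the same. The median CKO minus WT difference of the 48 genes was -0.11 for number 1, where 37 genes were lower in CKO. It was 0.30 for number 2, where 9 were lower, and 0.09 for number 3, where 12 were lower. The medians of all genes tested were -0.01, 0.0014 and 0.0014. In 5 genes CKO was higher under every number and in 2 it was lower under every number, against 18.2% and 21.3% of all genes tested. With replicates 2 and 3 alone, a choice made after seeing the data, 5 of the 48 passed the adjusted threshold and all were higher in CKO, against 7.05% of all genes called higher and 8% called lower. These were *Gtse1* (log2 fold change 0.58, adjusted *p* value 0.0016), *Mki67* (0.44, 0.047), *Hmmr* (0.39, 0.045), *Bub3* (0.37, 0.049) and *Cdc25b* (0.36, 0.046), all by limma with 2 libraries per group.

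Erythroid markers also differed among the libraries. The median log2 deviation of 15 erythroid markers was -0.34, -0.17 and -0.08 for WT and -0.64, 0.84 and 0.36 for CKO. Their summed FPKM lay between 38122 and 64372 among WT libraries and between 31128 and 143580 among CKO libraries. In the deposited scaling, CKO replicate 1 was lowest and CKO replicate 2 highest for both the erythroid markers and the mitotic genes. Among the WT libraries the orders differed, and replicate 1 was lowest for the erythroid markers and highest for the mitotic genes. Dividing erythroid precursors also express mitotic genes, and the part of blood cells in these values was not tested. The deviation of the number 1 libraries from the others went with the GC content of the transcript among the 48 genes (Pearson r = 0.43, across genes, which share the same libraries) and had r = 0.01 with transcript length. Over all genes tested the values were 0.11 and 0.42. *Spc25*, *Nusap1* and *Cdk1* were lowest in the number 1 libraries (-0.69, -0.65 and -0.60 on the log2 scale) and *Incenp* and *Plk1* highest (0.51 and 0.41).

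**Figure D3:**
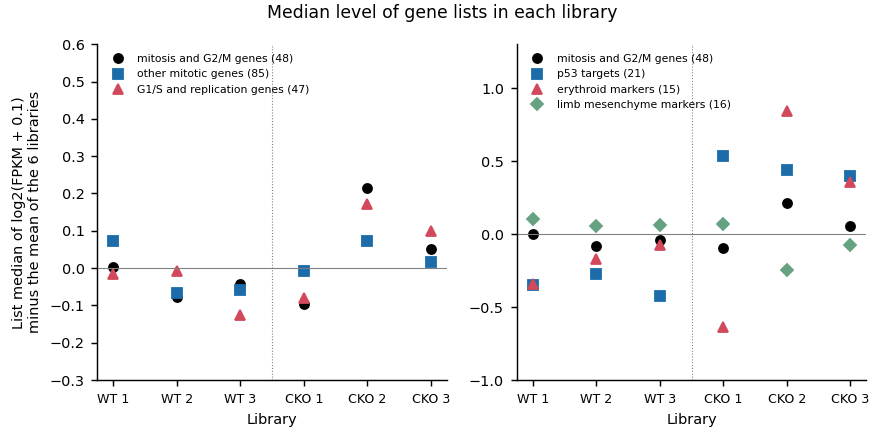
Median over a gene list of log2(FPKM + 0.1) minus the mean of the 6 libraries, by library, for the 48 mitosis and G2/M genes against other cell cycle lists (left) and against p53 targets, erythroid markers and limb mesenchyme markers (right), with the number of genes tested in brackets. As deposited, the mitotic and erythroid medians are both lowest in CKO replicate 1 (-0.10 and -0.64) and highest in CKO replicate 2 (0.21 and 0.84).

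The genes at the entry into mitosis, Cdk1, its cyclins and the Cdc25 phosphatases, showed no call among 6 genes, and their median log2 fold change was 0.08. *Ccnb1*, cyclin B1, was 53.3, 56.5 and 56.6 FPKM in WT and 48.1, 80.7 and 63.3 FPKM in CKO. *Cdk1*, the kinase that drives entry, was 29.5, 41.4 and 38.4 FPKM in WT and 27.3, 50.7 and 43.2 FPKM in CKO. *Ccna2*, cyclin A2 of S phase and G2, was 75.03, 79.8 and 84.8 FPKM in WT and 67.1, 93.3 and 87.4 FPKM in CKO. In all 3 genes CKO replicate 1 was the lowest and CKO replicate 2 the highest of the 6 libraries, so the CKO values spanned the WT values. Their log2 fold changes were 0.18 (SE 0.19), 0.12 (SE 0.24) and 0.04 (SE 0.16). *Ccnb2*, cyclin B2, was 57.9, 70.6 and 61.5 FPKM in WT and 46.7, 59.1 and 62.0 FPKM in CKO, the 2nd most negative change of the 48 at -0.19 (SE 0.15), with overlapping groups. *Cdc25b*, the phosphatase that starts Cdk1 activation, was 21.2, 19.0 and 18.6 FPKM in WT and 21.5, 24.7 and 23.7 FPKM in CKO. The groups did not overlap, but CKO replicate 1 lay just above WT replicate 1. Its log2 fold change was 0.25 (SE 0.12, adjusted *p* value 0.63). *Cdc25c*, which amplifies Cdk1 activation, was 25.7, 25.01 and 24.8 FPKM in WT and 23.3, 26.3 and 24.6 FPKM in CKO, a difference of -0.03 on the log2 scale.

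The spindle checkpoint and the APC/C had 7 genes with a median log2 fold change of 0.04 and no call. *Cdc20*, the APC/C activator that the checkpoint holds back, was 88.4, 84.3 and 76.7 FPKM in WT and 92.6, 85.8 and 94.5 FPKM in CKO. *Bub1b* (BubR1), which binds Cdc20 in the checkpoint complex, was 54.1, 45.9 and 43.7 FPKM in WT and 50.003, 48.7 and 49.5 FPKM in CKO. *Mad2l1* (Mad2), the other Cdc20-binding inhibitor, was 16.6, 18.3 and 17.4 FPKM in WT and 13.6, 22.2 and 18.5 FPKM in CKO. The groups overlapped in all 3, with log2 fold changes of 0.13, 0.05 and 0.02. *Bub3*, which brings Bub1 and BubR1 to kinetochores, was 25.2, 26.2 and 21.9 FPKM in WT and 24.8, 32.5 and 29.7 FPKM in CKO. Its log2 fold change was 0.24 (SE 0.14), with CKO replicate 1 inside the WT range. *Ttk* (Mps1), the checkpoint kinase, was 17.2, 15.3 and 15.3 FPKM in WT and 15.2, 16.2 and 14.4 FPKM in CKO, a difference of -0.06. *Ube2c* had means of 49.4 ± 0.667 FPKM in WT and 49.4 ± 2.31 FPKM in CKO (SD, n = 3 each), and *Bub1*, a kinase of the outer kinetochore, a log2 fold change of 0.04.

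Among 5 other mitotic kinases the median was 0.07. *Plk1*, which acts at centrosomes, kinetochores and the midzone, was 61.3, 46.7 and 47.1 FPKM in WT and 58.7, 39.8 and 47.3 FPKM in CKO. The 2 libraries numbered 1 were its highest, and CKO replicate 2, the highest library for most of the list, was its lowest. *Aurka*, the kinase of spindle poles, was 47.96, 45.3 and 42.7 FPKM in WT and 45.5, 55.0 and 53.1 FPKM in CKO, with overlapping groups. *Pbk*, a kinase active in mitosis, was 32.1, 34.7 and 35.3 FPKM in WT and 25.9, 31.2 and 31.9 FPKM in CKO. It was the one gene of the 48 whose CKO values all lay below the WT values, at a log2 fold change of -0.20 (SE 0.13, adjusted *p* value 0.73, 0.32 with the replicate block). *Plk4*, which starts centriole duplication, was 14.02, 11.9 and 13.3 FPKM in WT and 14.5, 16.4 and 14.9 FPKM in CKO, a change of 0.23 (SE 0.12, adjusted *p* value 0.68). *Melk* had a log2 fold change of 0.07.

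The chromosomal passenger complex, which corrects attachments and then acts at the midzone, was represented by *Aurkb*, *Birc5* and *Incenp*. *Aurkb*, its kinase, was 27.6, 23.8 and 23.6 FPKM in WT and 31.3, 23.5 and 27.2 FPKM in CKO. *Birc5* (survivin) was 30.6, 40.8 and 35.8 FPKM in WT and 30.1, 46.9 and 42.1 FPKM in CKO. The libraries ranked in nearly opposite orders for these subunits of 1 complex, with CKO replicate 1 the highest for *Aurkb* and the lowest for *Birc5*. *Incenp*, the scaffold, was highest in the libraries numbered 1, like *Aurkb*. The log2 fold changes were 0.12, 0.13 and 0.04, and the groups overlapped in each.

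The centromere and kinetochore genes had the largest median of the 8 roles, 0.14 over 6 genes, with no call. *Cenpa*, the histone variant of centromeres, was 24.8, 27.9 and 26.4 FPKM in WT and 27.3, 23.9 and 28.3 FPKM in CKO, a difference of 0.0044. *Ndc80*, which binds microtubules at the outer kinetochore, was 27.4, 29.95 and 29.9 FPKM in WT and 23.7, 41.5 and 35.0 FPKM in CKO. *Cenpf*, a large protein of the outer kinetochore, was 14.9, 12.6 and 15.1 FPKM in WT and 15.4, 18.7 and 14.7 FPKM in CKO. Both sets of values overlapped between groups. *Cenpe*, the kinetochore motor that moves chromosomes to the metaphase plate, was 27.2, 22.7 and 25.5 FPKM in WT and 28.8, 33.0 and 27.3 FPKM in CKO. CKO replicate 3 lay just above WT replicate 1, and the log2 fold change was 0.24 (SE 0.13, adjusted *p* value 0.69). *Nuf2* and *Spc25*, partners of Ndc80 in the same complex, had log2 fold changes of 0.11 and 0.02, against 0.16 for *Ndc80*.

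Of 8 spindle motors and microtubule proteins, *Gtse1* had the largest change of the whole list. It lies at chr15:85859745-85876573 (GRCm38) and encodes a microtubule-associated protein of G2 and mitosis that was first described as a p53-inducible gene in mouse cells. Its values were 21.2, 17.7 and 18.3 FPKM in WT and 32.6, 26.2 and 27.6 FPKM in CKO. All CKO libraries lay above all WT libraries, and the difference was alike within the replicate numbers, at 0.62, 0.57 and 0.59 on the log2 scale. The means were 19.1 ± 1.90 FPKM in WT and 28.8 ± 3.37 FPKM in CKO (SD, n = 3 each). The log2 fold change of 0.59 (SE 0.13) had an unadjusted *p* value of 0.0025 and an adjusted *p* value of 0.26 in limma, and an adjusted *p* value of 0.0091 with the replicate block, where it rose past the threshold. In voom on recovered reads the adjusted *p* value was 0.28. The recovered reads of *Gtse1* were not whole in all libraries, so its voom values here and below are less certain. The same held for *Cdc25c*, *Incenp*, *Ndc80*, *Kif11* and *Kif20a*, while those of 42 of the 48 genes were whole in all libraries. Over all alternatives the log2 fold change of *Gtse1* stayed between 0.48 and 0.67. CKO replicate 1, the lowest library for 18 of the 48 genes, was the highest for *Gtse1*.

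*Kif11* (Eg5), the motor that separates spindle poles, was 58.5, 51.3 and 58.5 FPKM in WT and 54.0, 61.7 and 54.8 FPKM in CKO. *Tpx2*, which activates Aurora A on the spindle, was 71.7, 65.2 and 65.1 FPKM in WT and 65.4, 81.8 and 72.3 FPKM in CKO. Both overlapped between the groups, at log2 fold changes of 0.02 and 0.11. *Kif2c*, *Kif4*, *Nusap1*, *Hmmr* and *Dlgap5* ranged from -0.03 (*Kif2c*) to 0.21 (*Hmmr*), each with overlapping groups.

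The cytokinesis genes had a median of 0.12 over 7 genes and no call. *Prc1*, which bundles midzone microtubules, was 17.7, 16.3 and 16.5 FPKM in WT and 16.96, 20.7 and 17.3 FPKM in CKO. *Kif20a*, a midzone motor, was 75.2, 68.5 and 64.5 FPKM in WT and 68.5, 87.5 and 76.2 FPKM in CKO. These groups overlapped, at 0.12 and 0.15 on the log2 scale. *Kif23* and *Racgap1* form the centralspindlin complex, which recruits the product of *Ect2* to the midzone. *Kif23* was 15.9, 13.4 and 14.1 FPKM in WT and 14.1, 13.02 and 12.9 FPKM in CKO, a log2 fold change of -0.12 (SE 0.12). *Racgap1* was 19.9, 16.8 and 17.6 FPKM in WT and 20.3, 15.9 and 18.8 FPKM in CKO, a log2 fold change of 0.01. *Ect2*, *Kif20b* and *Anln* had log2 fold changes of 0.19, 0.15 and 0.06, and the groups overlapped in all 7 genes.

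The chromosome structure genes included the most abundant RNAs of the list and had a median of 0.12 over 6 genes. *Top2a* was 102, 113 and 117 FPKM in WT and 95.9, 141 and 120 FPKM in CKO. *Mki67*, the gene of the Ki-67 protein that coats mitotic chromosomes and is used as a marker of cycling cells, was 112, 90.0 and 108 FPKM in WT and 106, 155 and 116 FPKM in CKO. CKO replicate 2 was the highest library for both, and CKO replicate 1 was the lowest for *Top2a* and inside the WT range for *Mki67*. The log2 fold change of *Mki67*, 0.27 (SE 0.18, adjusted *p* value 0.77), was the 2nd largest of the 48 and was 0.11 without CKO replicate 2. The study reported significantly suppressed proliferation in CKO, by Ki67 staining of limb buds at E11.5 and in cultured limb bud cells. Those are measures of protein and of cell growth, and the RNA of the whole bud given here was not tested against them. *Smc2*, a core subunit of both condensins, was 50.3, 42.5 and 47.8 FPKM in WT and 44.7, 65.8 and 47.6 FPKM in CKO. *Ncapg*, a subunit of condensin I, was 19.5, 19.5 and 21.4 FPKM in WT and 17.3, 25.3 and 21.2 FPKM in CKO. *Smc4* and *Ncaph* had log2 fold changes of 0.18 and 0.04, and no gene of the group was called.

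**Figure D4:**
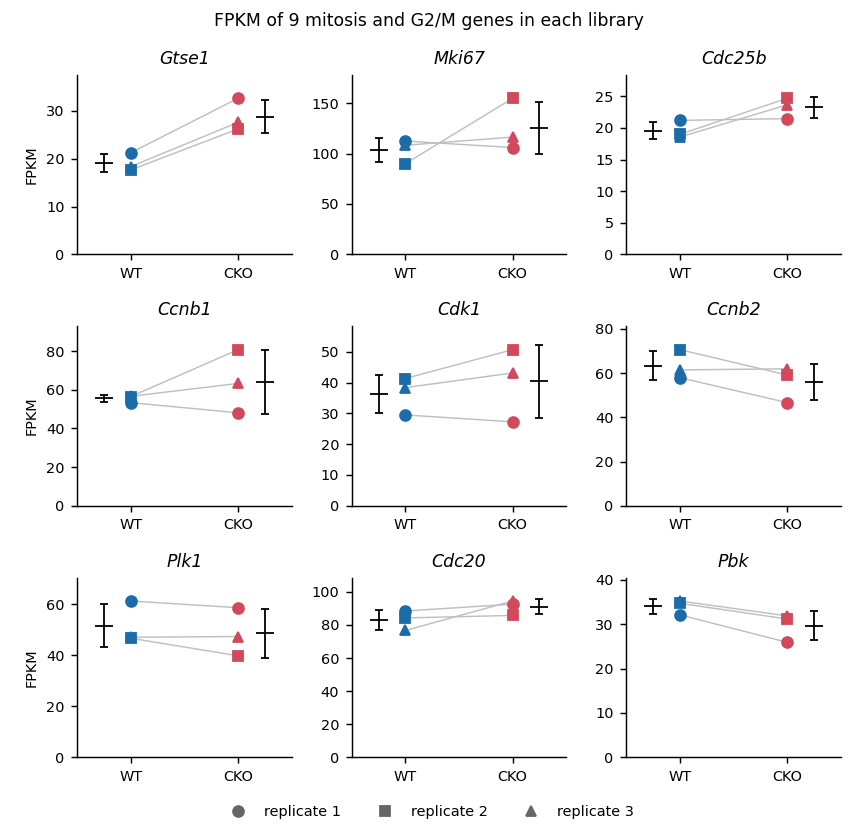
FPKM of 9 genes in each WT (blue) and CKO (red) library, with the marker giving the replicate number, grey lines joining libraries of the same number, and black bars the mean ± SD of 3 libraries. *Gtse1* is higher in CKO under every number and *Pbk* lower, while *Mki67* spans 106 to 155 FPKM in CKO against a WT range of 90.0 to 112.

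The fold changes were set beside the promoter element. The 27 genes with CHR letters in a RefSeq window had a median log2 fold change of 0.06 (from -0.19 to 0.27), the 12 without had 0.12 (from 0.02 to 0.59), and the 9 with no entry had 0.09. These classes rest on the letters TTTGAA alone, and *Bub1* and *Cdc25b* among the 12 carry the palindrome TTCGAA in the window. As deposited, all 12 genes without CHR letters stood above 0, as did 21 of the 27 with them. The split was not counted in the other scalings, where counts above 0 changed, and a difference between the classes was not tested. *Mad2l1*, without CHR letters, was -0.0023 with quantile normalization and -0.082 with the same sum without globin genes. The 14 genes for regulators of these promoters included no call and had a median of 0.05. *Foxm1*, an activator of G2/M genes, was 26.6, 17.4 and 20.3 FPKM in WT and 26.3, 15.6 and 18.1 FPKM in CKO. *Mybl2* (B-Myb) was 16.96, 12.9 and 12.5 FPKM in WT and 14.99, 11.7 and 12.97 FPKM in CKO. Both were highest in the libraries numbered 1 in each group, and the groups overlapped.

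Related genes were counted in the same way. Of 85 tested genes in the list of other mitotic genes, none passed in limma, 9 (10.6%, against 8.31% of all genes) were under 0.05 before adjustment, 52 stood above 0 and 33 below, and the median was 0.07. With the replicate block 1 was higher and 3 were lower (4.71% of the list, against 2.81% of all genes), and these were named after their values were seen. *Psrc1*, a spindle protein, had a log2 fold change of 0.46 (adjusted *p* value 0.036 with the block), and *Ska2* of the kinetochore Ska complex, *Pimreg* and *Zwilch*, a kinetochore checkpoint protein, had log2 fold changes of -0.65, -0.45 and -0.42 (adjusted *p* values 0.0058, 0.041 and 0.045 with the block). *Ska2* was 37.7, 43.4 and 44.4 FPKM in WT and 24.5, 27.4 and 27.9 FPKM in CKO, and its groups did not overlap. Of 47 G1/S and replication genes, none passed in limma (0 at an unadjusted *p* value under 0.05), 39 stood above 0 and 8 below, and the median was 0.12. These counts are in the deposited scaling, where 50.9% of all genes tested stood above 0.

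Most p53 targets had higher values in CKO in the same libraries. Of 21 tested, 19 stood above 0 and 2 below, and the median was 0.73. By limma, 6 passed the adjusted threshold and 14 did with the block, all of them higher in CKO. Of all genes tested, 0.065% passed by limma and 2.81% with the block. The 2 below 0, *Rrm2b* (-0.39, groups not overlapping) and *Sesn1* (-0.11), were named after their values were seen, and neither was called. *Cdkn1a*, the Cdk inhibitor through which p53 is known to lower mitotic genes, was 4.44, 6.597 and 5.59 FPKM in WT and 21.5, 26.5 and 28.3 FPKM in CKO, a log2 fold change of 2.19 (SE 0.18, adjusted *p* value 0.010). The other genes called were *Eda2r* (4.12), *Ccng1* (2.36), *Phlda3* (2.03), *Zmat3* (1.497) and *Sesn2* (1.45). In the same libraries and the deposited scaling, the 95% intervals of the 48 mitotic genes excluded a fall of 1, as given above. The median difference of the p53 targets within numbers 1, 2 and 3 was 0.72, 0.68 and 0.81. That of the 48 genes was -0.11, 0.30 and 0.09. The part of p53 and *Cdkn1a* in the levels of the mitotic genes was not tested, and the RNA is from all cells of the bud.

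The other cell types of the bud were followed by marker lists, and no listed marker was at 0 in all libraries. Limb mesenchyme markers, which are those of the labelled tissue, summed to 538 to 581 FPKM for WT and 444 to 524 FPKM for CKO, with 15 of 16 below 0 and a median log2 fold change of -0.17. The 15 erythroid markers were all above 0 (median 0.40), as were 6 muscle precursor markers (0.48, summed FPKM 18.2 to 32.6 for WT, 30.7 to 38.6 for CKO) and 4 neural crest and Schwann markers (0.31, 7.51 to 11.4 and 11.4 to 12.7). The 12 ectoderm markers had a median of 0.21 with 10 above 0 (54.3 to 88.0 and 59.5 to 93.6), and the 9 macrophage markers 0.33 with 8 above 0 (24.1 to 35.7 and 26.6 to 48.6). The 9 endothelial markers were all below 0 (median -0.32, 29.1 to 39.4 and 19.8 to 30.8). None of these markers was called in limma. Before adjustment, 2 of 16 mesenchyme, 2 of 9 endothelial and 1 of 6 muscle precursor markers were under 0.05. So were 1 of 9 macrophage markers, 1 of 4 neural crest and Schwann markers and no erythroid or ectoderm marker. The share of all genes tested was 8.31%. A further model, with the replicate block, called 1 marker, *Tbx5* of the forelimb mesenchyme, with a log2 fold change of -0.93. It was named after its values were seen, and this model called 2.81% of all genes tested. The part of changing cell types in the levels of the mitotic genes was not tested.

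Some of these genes share exon bases with a gene on the opposite strand. The share was 29.3% of the exon bases of *Kif20a* (with *Cdc23*), 22.8% of *Ube2c* (with *Tnnc2*), 15.1% of *Kif4*, 13.4% of *Ncapg*, 12.7% of *Cdc25c*, 12.5% of *Ccna2* (with *Exosc9*), 11.1% of *Prc1* and 7.09% of *Plk1*. The kit marks strand, but whether the counting used strand is not given in the sources used here, so the values of these genes are less certain.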

How the data were processed

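RNA-seq of 3 WT and 3 CKO limb bud libraries was used. Samples of the other assays (CUT&RUN, ATAC-seq, Hi-C) were not used here. The authors deposited 1 table of FPKM for 22040 genes, made from stranded mRNA libraries. The submitters' processing notes name mm10, cutadapt 2.5, HISAT2 2.1.0, Bowtie2 2.11.1, featureCounts 1.6.3 and MACS2 2.1.2 without roles, and the annotation is not given in the sources used here. Of the identifiers, 21933 were in GENCODE vM21 on GRCm38. FPKM times merged exon length came out as whole reads (tolerance 0.1) for 92.9% to 93.3% of values per library.

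Genes averaging at least 0.5 FPKM were compared on log2(FPKM + 0.1) by limma 3.58.1 (lmFit, eBayes with trend) in R 4.3.3, with Benjamini-Hochberg adjustment over 12305 genes. The model was also run on simulated data with added changes, and its outcome there is not used here. The deviations from group means were shuffled between genes in those data. That removed the link of spread to level that the trend uses, so the simulated setting differs from the real one. The alternatives were pseudocounts, filters, scalings, voom on recovered reads, leaving out each library, and the replicate number as a block. The labels number the libraries of both groups alike. The deviations of same-numbered libraries from their group means correlated across genes at 0.64, 0.44 and 0.27, each above the 0.1 at which numbers were taken to pair libraries. Numbers 2 and 3 were not set apart, since WT replicate 2 and CKO replicate 3 correlated at 0.49 and WT replicate 3 and CKO replicate 2 at 0.31. The main test had no block, and values with the block are named as such. What a number stands for is not given in the sources used here. No 2 libraries agreed within sampling noise.

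The members and the gene lists were chosen with earlier results of these data known. Lists were other mitotic genes, G1/S and replication genes, regulators of these promoters, p53 targets and markers of 7 cell types, and they were described by counts and medians. Values in every library are given for members past the adjusted threshold, the 5 largest rises and 5 largest falls, members whose groups did not overlap, and members set by role. Promoter windows and genome positions are RefSeq GRCm38.p6 and GENCODE vM21.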

Additional observations from a re-analysis of the deposited data

How the results depend on the processing

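The number of the 48 genes past the adjusted threshold was 0 in limma as reported and 0 with both other pseudocounts, both other filters, all 3 other scalings, voom on recovered reads and each library left out. It was 1 with the replicate block, 1 with voom on recovered reads and the replicate block (*Gtse1*, adjusted p = 0.0021), and 5 with replicates 2 and 3 alone. The settings of voom with the block and of replicates 2 and 3 alone were chosen after seeing the data. The replicate block changed no other call among the 48 genes. The median log2 fold change of the 48 ran from -0.010 (same sum without globin genes) to 0.20 (without CKO replicate 1). The count over all genes was 8 as reported, 14 with quantile normalization, 4 with the same sum without globin genes, 346 with the replicate block, 651 with voom and the block, 1851 with replicates 2 and 3 alone, and from 1 to 23 with 1 library left out (WT replicates 1, 2 and 3 gave 7, 3 and 1 when left out, and CKO replicates 1, 2 and 3 gave 23, 1 and 1). The cause was not tested. *Gtse1* kept its direction in every alternative. Among the genes given with values in every library, those that turned sign, all uncalled, were, as log2 fold changes, *Ccna2* -0.076, *Bub1b* -0.022, *Mad2l1* -0.0023, *Cenpa* -0.042, *Kif11* -0.060, *Racgap1* -0.012 and *Top2a* -0.024 with quantile normalization. With the same sum without globin genes they were *Ccna2* -0.072, *Bub1b* -0.057, *Mad2l1* -0.082, *Cenpa* -0.10, *Kif11* -0.089, *Racgap1* -0.095, *Top2a* -0.018 and *Ncapg* -0.042. With replicates 2 and 3 alone they were *Cdc25c* 0.032, *Ttk* 0.0021 and *Cenpa* -0.063. With 1 library left out the ranges that crossed 0 were *Ccna2* -0.060 to 0.18, *Cdk1* -0.071 to 0.38, *Mad2l1* -0.14 to 0.22, *Plk1* -0.24 to 0.040, *Cenpa* -0.045 to 0.077, *Kif11* -0.045 to 0.053, *Racgap1* -0.065 to 0.11, *Bub1b* -0.012 to 0.14, *Cdc25c* -0.073 to 0.016, *Ccnb1* -0.0079 to 0.37, *Ndc80* -0.011 to 0.39, *Top2a* -0.040 to 0.24, *Ncapg* -0.069 to 0.20 and *Smc2* -0.020 to 0.26. Each gene had at least 840 reads per library, and its interval reflects the spread between 3 libraries per group.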
